A study of Homo sapiens with 8 samples.

Results

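Fibroblast growth factor (FGF) ligands and their receptors were followed at the messenger RNA level in LX-2, an immortalised human hepatic stellate cell (HSC) line with the features of a myofibroblast (MF). The genes were chosen by name: the ligands FGF1, FGF2, FGF5, FGF7, FGF18 and FGF21, and the receptors FGFR1, FGFR2, FGFR3 and FGFR4. Of these 10 genes, 9 were analysed among the 16796 genes of the count tables, namely 5 ligands and 4 receptors, and FGF21 was not analysed here. Control cells received the vehicle DMSO and OGTi cells received OSMI-1 at 50 µM, a small-molecule inhibitor of O-GlcNAc transferase (OGT), the enzyme that attaches O-GlcNAc to nuclear and cytosolic proteins. Both groups were kept for 24 h in medium with 5% serum, itself a source of growth factors, and each group had 4 libraries of poly(A)-selected RNA from biological replicates numbered 1 to 4. LX-2 is a single line, and the spread between its replicates does not cover differences between donors.

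Secreted FGFs bind receptor tyrosine kinases on the cell surface with heparan sulfate as a co-receptor, and the activated receptor signals through the adaptor FRS2 to RAS and the ERK kinases. ERK activity in turn induces inhibitors of the same cascade, such as the Sprouty proteins and dual-specificity phosphatases, and their transcripts are widely measured beside the ligands and receptors. In the liver, stellate cells are known as a source of FGFs and as cells that divide in response to FGF2.

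The libraries held 24166756 to 28201215 expected counts, and 12829 to 13180 genes per library reached 10 counts. Values below are normalized counts, that is, expected counts divided by the library's size factor, and q is the adjusted p of the DESeq2 Wald test with the replicate number as a block. A gene was called at a q of 0.05 or lower. Of 14028 genes with a q, 6541 (46.6%) were called, 3181 (22.7%) higher and 3360 (24.0%) lower in OGTi, and in 5609 (40.0%) the 4 OGTi values did not overlap the 4 control values. The cells carried HSC and MF transcripts such as COL1A1 and VIM, whereas DES stayed at or below 4.16 normalized counts in each library. Summed over 14 HSC and MF markers, the level ran from 367985 to 431935 in control and from 268639 to 313771 in OGTi, with 10 markers lower and 1 higher. Markers of other liver cells were low in sum for hepatocytes (19.5 to 76.0 in control, 27.9 to 76.8 in OGTi; 3 of 8 markers in the tables, APOA1 close to 0) and endothelial cells (75.0 to 98.6 against 19.0 to 45.7; 5 of 7 markers in the tables). The 3 cholangiocyte markers of 5 listed that were in the tables summed to 681 to 1151 in control and 955 to 1273 in OGTi, mainly SOX9, with KRT19 close to 0. The 4 macrophage and leukocyte markers of 7 listed summed to 2482 to 4089 in control and 5610 to 9391 in OGTi, nearly all of it from the lysosomal gene CD68, while PTPRC, the pan-leukocyte marker, stayed at or below 11.5. The part of these shifts in the FGF results was not tested. In bulk RNA of a single line, fewer cells that express a gene and less of its RNA per cell cannot be told apart.

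Of the 8 FGF genes with a q, 5 were called. The 3 called ligands were lower in OGTi and the 2 called receptors were higher. In 4 of these 5 genes the groups did not overlap, against 40.0% over all genes with a q. These 5 genes were already called, so the lack of overlap is no separate support. FGF1 fell 4.55-fold, FGF2 fell 2.49-fold and FGF5 fell 1.48-fold, whereas FGFR1 rose 1.66-fold and FGFR3 rose 1.83-fold. FGF7, FGF18 and FGFR4 did not pass the test, and FGFR2 was close to the floor of detection. With 46.6% of all genes called, 5 of 8 genes is near the share over the whole table.

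The sequences next to the starts of FGF1, FGF2, FGF5 and FGFR3 are shown because these genes were called and have an entry in the RefSeq promoter table on GRCh38.p14, in which 8 of the FGF genes matched. Each stretch ends before the first annotated exon and is written 5′ to 3′ on the strand of its gene. Capitals mark the GC box GGGCGG or its reverse complement CCGCCC. For FGF1 the stretch is chr5:142698071-142698320 on the minus strand, upstream of the farthest of 4 starts in the table, and which start LX-2 cells use was not measured. FGF2 is represented by chr4:122826581-122826681 on the plus strand. The FGF5 stretch, chr4:80266338-80266587, and the FGFR3 stretch, chr4:1793043-1793292, lie on the plus strand too.
FGF1: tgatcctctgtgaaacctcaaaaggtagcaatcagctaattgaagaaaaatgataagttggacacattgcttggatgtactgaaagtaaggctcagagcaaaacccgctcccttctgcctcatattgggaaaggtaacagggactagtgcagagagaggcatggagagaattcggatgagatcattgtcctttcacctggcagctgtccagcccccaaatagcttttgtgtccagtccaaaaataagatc
FGF2: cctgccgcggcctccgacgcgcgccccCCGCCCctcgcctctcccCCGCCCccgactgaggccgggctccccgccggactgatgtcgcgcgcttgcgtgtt
FGF5: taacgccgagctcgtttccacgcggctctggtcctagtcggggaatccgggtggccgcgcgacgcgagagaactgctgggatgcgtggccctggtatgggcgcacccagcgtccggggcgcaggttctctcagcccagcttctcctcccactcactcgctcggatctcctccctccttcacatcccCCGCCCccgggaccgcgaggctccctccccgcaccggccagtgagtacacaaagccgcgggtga
FGFR3: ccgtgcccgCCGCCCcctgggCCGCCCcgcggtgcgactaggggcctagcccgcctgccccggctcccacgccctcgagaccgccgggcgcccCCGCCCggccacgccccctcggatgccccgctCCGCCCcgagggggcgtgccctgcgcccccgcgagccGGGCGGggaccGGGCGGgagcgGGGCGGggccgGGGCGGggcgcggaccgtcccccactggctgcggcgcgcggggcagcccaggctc
The stretch of FGF1 stands apart in base composition, with 44.8% GC and 2 CpG dinucleotides in 250 bases, and only 21.6% of promoter windows had less GC. FGF2 had 80.2% GC and 17 CpG in 101 bases, FGF5 had 68.8% GC and 27 CpG in 250 bases, and FGFR3 had 86.8% GC and 40 CpG in 250 bases, more GC than 99.8% of windows. The GC box occurred 2 times next to FGF2, 1 time next to FGF5, 8 times next to FGFR3 and 0 times next to FGF1. Among 35116 promoter windows it was present in 42.6% at a length of 250 bases and in 17.5% at 101 bases. Searched on both strands, the core letters bound by TEAD factors (GGAATG), AP-1 (TGANTCA) and ETS factors (CCGGAA) had 0 matches in the 4 stretches. At 250 bases these letters were found in 11.9%, 6.57% and 14.5% of windows, and at 101 bases in 5.05%, 2.46% and 4.22%. A match or its absence in so short a window says nothing of binding.

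FGF1, the ligand that binds all FGF receptors and lacks a classical signal peptide, had 1544, 913.1, 1573 and 1308 normalized counts in control replicates 1 to 4. In OGTi replicates 1 to 4 the values were 281.5, 263.2, 263.4 and 349.6. The highest OGTi library lay far below the lowest control library, and control replicate 2 was the lowest of its group. Means were 1335 ± 305.1 (SD, n = 4) in control and 289.4 ± 41.0 (SD, n = 4) in OGTi, a log2 fold change of -2.18 ± 0.14 (SE) with a DESeq2 q of 1.25e-56. The change within a replicate pair ran from -1.79 to -2.57 on the log2 scale, and leaving out any one pair gave -2.06 to -2.31. The gene lies on chr5:142592178-142698070 (GRCh38, minus strand).

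FGF2, basic FGF, a mitogen of stellate cells and fibroblasts that also leaves the cell without a signal peptide, was the most abundant ligand of the set. Control libraries held 3849, 4126, 4866 and 4372 normalized counts and OGTi libraries 1423, 1616, 2005 and 1914, replicates 1 to 4 in both cases. All OGTi values lay well below the lowest control value, and replicates 3 and 4 were the higher ones in both groups. Means were 4303 ± 431.6 and 1740 ± 268.8 (SD, n = 4 each), and the log2 fold change was -1.31 ± 0.08 (SE; DESeq2 q = 2.56e-64). The pairs lay close together, between -1.19 and -1.44.

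FGF2, at chr4:122826682-122898236 on the plus strand, overlaps NUDT6, a gene for a Nudix hydrolase transcribed from the opposite strand at chr4:122888697-122922968. Their spans share 9540 bases and their exons share 804 bases. NUDT6 had 65.3, 61.1, 40.2 and 60.3 normalized counts in control and 92.3, 90.4, 128.8 and 93.2 in OGTi. It moved the other way from FGF2, with a log2 fold change of 0.83 ± 0.29 (SE; DESeq2 q = 0.0101) and no overlap between groups. Without replicate 3 the NUDT6 change was 0.56 and its q was 0.166. The libraries were strand-specific and the counting used the strand, so the pair could be counted apart.

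FGF5, a secreted ligand best known as a brake on hair growth, gave the weakest of the called changes. Its control values were 908.9, 1744, 2418 and 1888 normalized counts and its OGTi values were 855.4, 1335, 1095 and 1201. All 4 OGTi libraries were below the control library of the same number, but the groups overlapped because control replicate 1 was low, and replicate 1 was the lowest library in both groups. The log2 fold change was -0.57 ± 0.22 (SE; DESeq2 q = 0.0246), from -0.09 in pair 1 to -1.14 in pair 3. By DESeq2 the call was lost without the block (q = 0.0899), without replicate 2 (q = 0.0844) and without replicate 4 (q = 0.163). It held by edgeR without the block (q = 0.0327). Without replicate 3 the log2 fold change was -0.38, and without replicate 1 it was -0.73. FGF5 had fractional expected counts in 8 of 8 libraries, that is, part of its reads was shared with other loci. The gene spans chr4:80266639-80336680.

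FGF7, keratinocyte growth factor, which mesenchymal cells secrete towards epithelia, was low at 18.7 to 51.7 normalized counts in control and 21.0 to 44.8 in OGTi. FGF18, a ligand best known from cartilage and lung, ran from 10.7 to 18.8 in control and from 11.5 to 27.0 in OGTi. The groups overlapped in both genes. The log2 fold change was -0.15 ± 0.42 (SE; DESeq2 q = 0.808) for FGF7 and 0.26 ± 0.57 (SE; q = 0.751) for FGF18, and each turned sign when a single replicate was left out, FGF7 to 0.22 without replicate 3 and FGF18 to -0.04 without replicate 4. With standard errors of this size, changes as large as that of FGF5 were not detectable at this depth. FGF7 maps to chr15:49423237-49488775 and FGF18 to chr5:171419647-171457626, and FGF7 has copies of part of its sequence elsewhere in the genome, although its counts were whole numbers in all 8 libraries.

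FGFR1, the main FGF receptor of mesenchymal cells, on chromosome 8, rose in all 4 pairs. It had 7756, 6845, 7625 and 8148 normalized counts in control and 13546, 12804, 12360 and 11558 in OGTi. The lowest OGTi library was well above the highest control library. Means were 7593 ± 546.4 and 12567 ± 832 (SD, n = 4 each), with a log2 fold change of 0.73 ± 0.08 (SE; DESeq2 q = 6.23e-20). The pairs ran from 0.50 to 0.90, and under every alternative computed the change lay between 0.67 and 0.82.

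FGFR3, a receptor best known as a brake on bone growth, was expressed at a much lower level. Its values were 165.6, 161.6, 105.7 and 114.4 normalized counts in control and 236.7, 376.7, 225.9 and 179.3 in OGTi. The groups did not overlap, and OGTi replicate 2 was the highest library. The log2 fold change was 0.87 ± 0.19 (SE; DESeq2 q = 1.95e-05), and the gene stayed called when any one pair was left out. FGFR3 spans chr4:1793293-1808872.

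FGFR4, the FGF19 receptor of hepatocytes, showed no detectable change. Control libraries had 102.3, 119.3, 65.5 and 84.2 normalized counts and OGTi libraries 102.4, 127.6, 67.3 and 89.2. The replicates kept the same order in both groups, and each OGTi value lay within 0.10 of its control on the log2 scale, at a log2 fold change of 0.05 ± 0.24 (SE; DESeq2 q = 0.877). FGFR2, which epithelial and some mesenchymal cells use, had 19 expected counts over the 8 libraries, with 0 to 3 in control and 1 to 7.97 in OGTi. No fold is given for FGFR2, because most libraries were at or under the floor of 3 counts. FGFR4 lies at chr5:177086905-177098144 and FGFR2 at chr10:121478332-121598458.

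**Figure D1:**
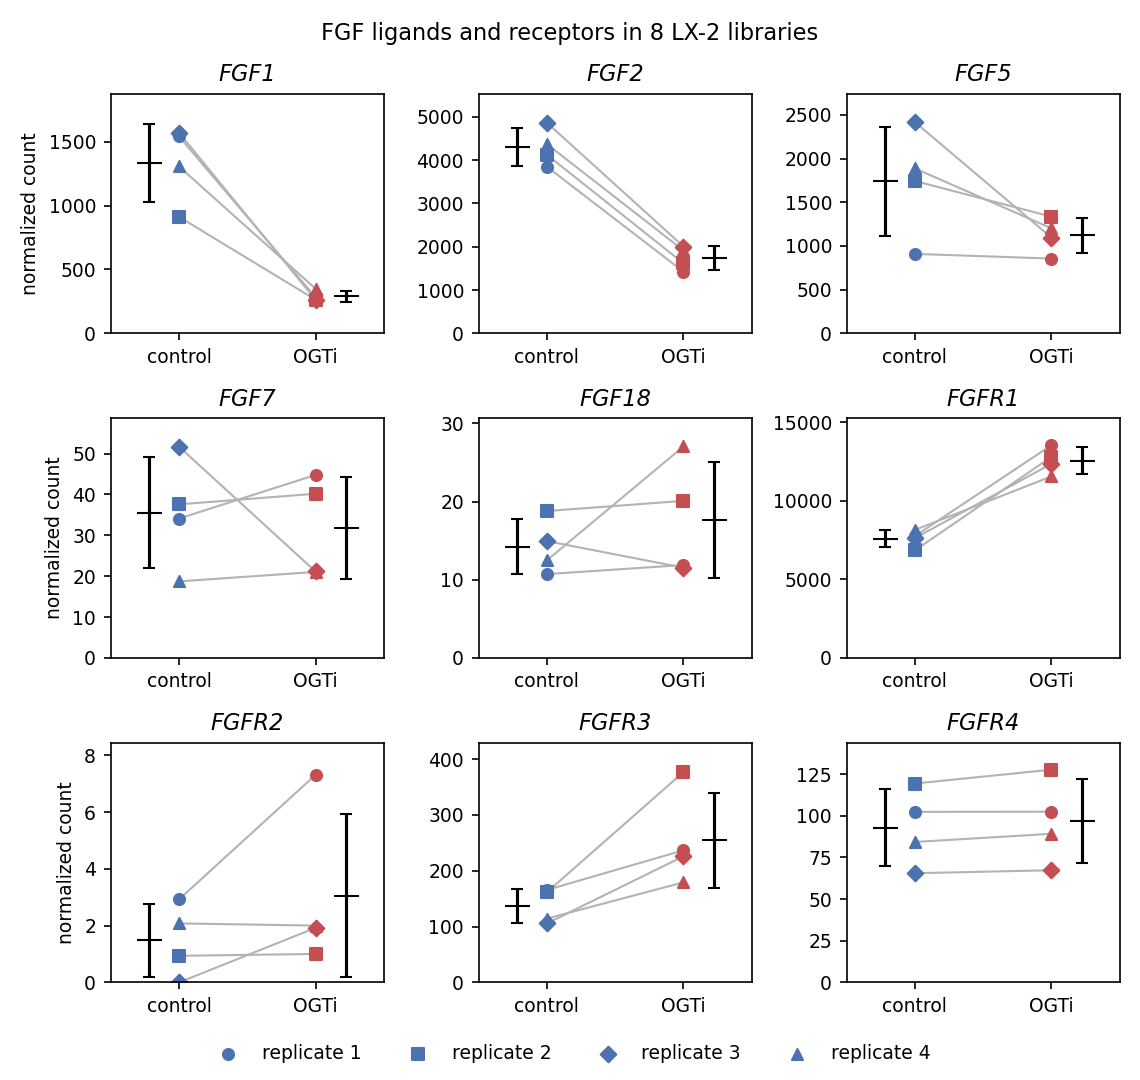
Normalized counts (vertical axis, from 0, with a scale of its own per gene) of the 9 FGF genes in the control (blue) and OGTi (red) libraries. Marker shapes give the replicate, grey lines join libraries of the same number, and black bars give mean ± SD of 4 libraries. FGF1, FGF2, FGFR1 and FGFR3 have groups that do not overlap, and the FGF5 groups overlap through control replicate 1 at 908.9.

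The sizes of the changes were set against each other within pairs, with 3 comparisons and exact two-sided sign-flip tests, for which 4 pairs allow no p below 0.125. FGF1 fell further than FGF2 in 4 of 4 pairs, by a mean difference of -0.86 ± 0.37 (SD, n = 4) on the log2 scale (exact p = 0.125, adjusted 0.188). FGF2 fell further than FGF5 in 4 of 4 pairs, with -0.75 ± 0.52 (exact p = 0.125, adjusted 0.188). The rises of FGFR3 and FGFR1 differed by 0.14 ± 0.31 and FGFR3 rose more in 3 of 4 pairs (exact p = 0.375, adjusted 0.375). By this test none of these differences could pass 0.05, so it cannot decide whether the sizes of the changes differ. The 3 comparisons were also chosen with earlier results of these data known.

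**Figure D2:**
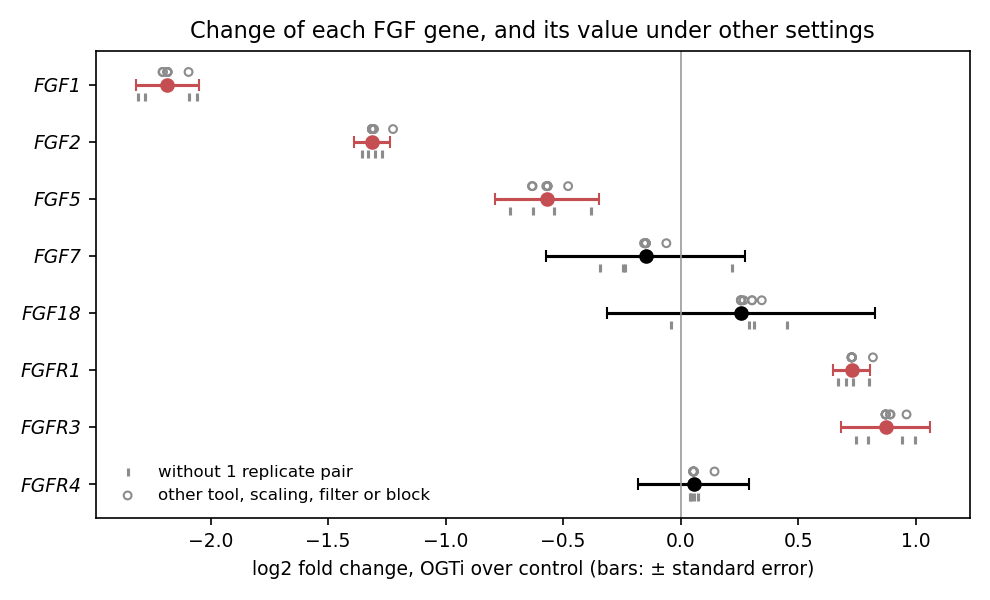
Log2 fold change of OGTi over control (horizontal axis) of the 8 FGF genes with a q, as the DESeq2 estimate (filled circle, red where called) with its standard error (bar). Grey ticks below leave out 1 replicate pair and open grey circles above use another tool, scaling, filter or no block. FGF1, FGF2 and FGF5 stay left of 0 and FGFR1 and FGFR3 stay right of it under each setting drawn, whereas FGF7 and FGF18 cross 0.

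Levels were compared between genes as normalized counts per kilobase of exon. In control cells FGF2 was highest at 632.7 ± 63.5 (SD, n = 4), followed by FGFR1 at 441.4 ± 31.8, FGF5 at 292.0 ± 104.9 and FGF1 at 268.0 ± 61.3. FGF2 and FGFR1 did not overlap, while FGFR1 and FGF5, and FGF5 and FGF1, did. The remaining genes were far lower in control, with FGFR3 at 28.2 ± 6.4, FGFR4 at 19.3 ± 4.8, FGF18 at 7.12 ± 1.75, FGF7 at 5.45 ± 2.08 and FGFR2 at 0.079 ± 0.068. FGFR3 overlapped FGFR4, and FGF18 overlapped FGF7. With all exons as the length, the order changed at the top in OGTi cells. There FGFR1 led at 730.6 ± 48.4 normalized counts per kilobase, with no overlap with FGF2 at 255.8 ± 39.5, and FGF2 overlapped FGF5 at 188.2 ± 34.0. FGF1 at 58.1 ± 8.2 came down to the range of FGFR3 at 52.5 ± 17.6. Lower still were FGFR4 at 20.1 ± 5.2, FGF18 at 8.83 ± 3.71 and FGF7 at 4.88 ± 1.92. The first places in control depended on the length used, since with the longest transcript in place of all exons FGFR1 stood at 1222, above FGF2.

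**Figure D3:**
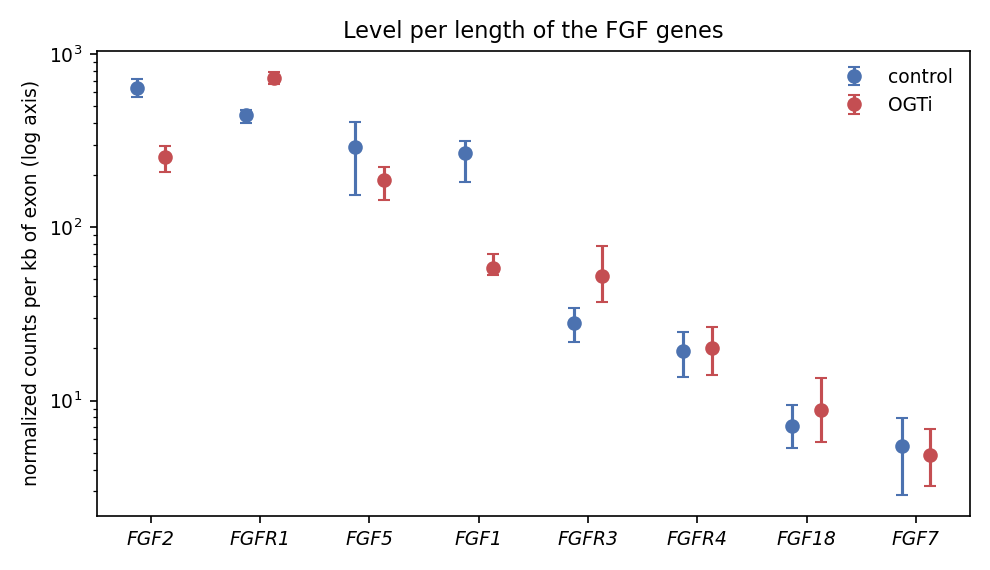
Normalized counts per kilobase of exon (vertical log axis) of 8 FGF genes in control (blue) and OGTi (red). Points are means of 4 libraries and bars run from the lowest to the highest library. FGFR2 is left out because control replicate 3 had 0 counts. With all exons as the length, FGF2 heads the control order at 632.7 and FGFR1 heads the OGTi order at 730.6.

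Among the 4 receptors, FGFR1 made up 90.2% ± 2.5 (SD, n = 4) of the summed per-length level in control and 91.0% ± 2.2 in OGTi. FGFR3 accounted for 5.80% ± 1.44 and 6.48% ± 1.82, and FGFR4 for 3.97% ± 1.12 and 2.49% ± 0.54. The ranges of the control and OGTi libraries overlapped for each of these shares. Within replicate pairs 1 to 4, the FGFR4 share was 4.20%, 5.44%, 2.85% and 3.40% in control and 2.48%, 3.12%, 1.80% and 2.55% in OGTi, lower in 4 of 4 pairs. The FGFR4 transcript itself was not lower in any pair, with mean normalized counts of 92.8 in control and 96.6 in OGTi. Its share also falls when the other receptors rise. FGFR2 held 0.0158% in control and 0.0198% in OGTi. Without the correction for length, FGFR1 took 97.0% in control and 97.3% in OGTi.

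The genes whose log2 normalized counts ran most like the leading ligand and receptor over the 8 libraries were found among 10993 genes with a mean of at least 100. For FGF2 these were SLC25A24 (Pearson r = 0.997), a mitochondrial ATP-Mg/phosphate carrier, PLK2 (r = 0.996), a polo-like kinase, and NUCKS1 (r = 0.995), a chromatin-associated protein. PLK2, for instance, ran from 4730 to 6357 normalized counts in control and from 1806 to 2622 in OGTi. For FGFR1 they were STAT6 (r = 0.995), the transcription factor of interleukin-4 signalling, SLC27A4 (r = 0.994), a fatty acid transporter, and MAP3K3 (r = 0.989), a MAP kinase kinase kinase. The points share their libraries and fall into the 2 treatment groups, so these values describe likeness alone.

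The surroundings of the FGF genes were described with 13 lists of 126 genes, of which 109 were in the tables and 96 had a q. Of these 96 genes, 35 were higher and 23 lower in OGTi. The lower share equals the 24.0% of the whole table, and the higher share lies above the 22.7% of all genes with a q. The lists were chosen with earlier results of these data known. A gene named below that is neither among the 3 strongest calls of its list nor in a list of 6 or fewer genes was chosen after its values were seen. The control and OGTi libraries of a gene named as called did not overlap unless an overlap is stated.

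Other secreted ligands contributed little. Of 12 listed, 5 were in the tables and only FGF17 had a q, with 36.8 ± 12.4 normalized counts in control and 59.4 ± 16.01 in OGTi (log2 fold change 0.69 ± 0.36 SE, DESeq2 q = 0.102). FGF8, FGF9, FGF22 and FGF23 were never above 10. Among the intracellular FGF homologous factors, which do not act through FGF receptors and are known as partners of sodium channels, FGF11 was lower (60.4 ± 17.8 to 30.5 ± 11.3, log2 fold change -1.02, q = 0.0173). The FGF11 call was lost without replicate 1 (q = 0.161) or 2 (q = 0.155). FGF12 had 16.2 ± 10.2 and 23.8 ± 5.4 (q = 0.302), and FGF13 stayed at about 2 normalized counts on average.

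FGFRL1, a receptor-like protein without a kinase domain, was the most abundant of the atypical receptors and co-receptors, at 3104 ± 102.5 normalized counts in control and 2590 ± 293.2 in OGTi. Its log2 fold change was -0.27 ± 0.08 (SE; DESeq2 q = 0.00343), and without replicate 4 the q was 0.0883. FGFBP3, one of the secreted carriers that free FGFs from heparan sulfate, was called higher at 18.9 ± 4.0 against 39.8 ± 4.6 (log2 fold change 1.08, q = 0.0252), a call that was lost when any one pair was left out. KLB, the co-receptor for FGF19 and FGF21, and FGFBP1 were near the floor, with KLB at 3.64 and 3.62 normalized counts. Of the membrane proteins known to bind FGF receptors, FLRT2 fell from 4039 ± 1377 to 2480 ± 624.4 with overlapping groups but in 4 of 4 pairs (log2 fold change -0.68, q = 6.69e-16). CDH2, N-cadherin, stood at 4396 ± 1117 and 4034 ± 985.9 (q = 0.134), NCAM1 at 16.1 and 28.7 (q = 0.188), and FLRT1 and FLRT3 below 4 on average. ESRP2, an epithelial splicing factor that sets receptor isoforms, was at 16.7 and 11.6 (log2 fold change -0.54, q = 0.511), and ESRP1 was not analysed here.

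Heparan sulfate genes moved in both directions. Of 10 core protein genes with a q, 4 were higher (40%, against 22.7% over all genes with a q) and 4 lower (40%, against 24.0%), with a median log2 fold change of -0.20 against 0.005 over all genes. SDC3, a syndecan, fell from 8912 ± 833.1 to 3873 ± 173.3 (log2 fold change -1.20 ± 0.08 SE, DESeq2 q = 6.68e-54) and GPC1, a glypican, from 13233 ± 507.4 to 8364 ± 1283 (-0.67, q = 1.7e-15). HSPG2, which encodes perlecan, a basement membrane proteoglycan that stores FGF2, rose from 9423 ± 1351 to 14139 ± 1722 (0.59, q = 6.63e-11). SDC1 also rose (0.50, q = 9.13e-08) and AGRN, agrin, also fell (-0.43, q = 8.64e-08). In either direction, 8 of the 10 core protein genes were called, above the 46.6% called over all genes. In the list for chain synthesis, 4 of 12 genes with a q were higher and 2 lower, near that share. NDST1, the enzyme that starts sulfation of the chain on which FGF binding depends, fell from 6223 ± 576.8 to 2354 ± 216.8 (-1.40 ± 0.07 SE, q = 8.95e-86). EXT1, a polymerase of the chain, fell by 0.77 on the log2 scale (q = 1.06e-27), whereas EXTL2, a related transferase, rose by 0.96 (q = 7.93e-11). Of the 3 genes that edit or cleave the finished chain, 2 were lower (66.7%, against 24.0% over all genes with a q) and 0 higher. The lower genes were SULF1 and SULF2, which remove sulfate groups. SULF1 went from 76.0 ± 33.6 to 25.0 ± 11.4 (-1.61, q = 8.26e-06) and SULF2 from 1547 ± 470.9 to 952.6 ± 217.8 (-0.67, q = 3.13e-11). The SULF2 groups overlapped because replicate 1 was low in both, and by DESeq2 its call was lost without the block (q = 0.0529). By edgeR without the block 2 genes of this list were called lower. HPSE, heparanase, had 304.3 and 265.2 normalized counts (q = 0.301).

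FGF1 and FGF2 leave the cell by unconventional routes and bind partners inside it. Of 8 such genes, 3 were higher and 1 lower, a share of called genes near the 46.6% of the whole table. S100A13, which is released together with FGF1, rose from 274.6 ± 68.4 to 473.6 ± 81.4 normalized counts (log2 fold change 0.80 ± 0.14 SE, DESeq2 q = 3.08e-08) while its cargo FGF1 fell. TEC, a kinase that acts in FGF2 export, rose by 0.84 (q = 0.000352). LRRC59, needed for nuclear import of FGF1, fell by 0.30 on the log2 scale (q = 0.000125). FIBP, API5 and CEP57 had log2 fold changes between -0.08 and 0.13 and were not called.

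Between receptor and ERK, 9 of 22 genes were lower (40.9%, against 24.0% over all genes with a q) and 2 higher (9.09%, against 22.7%), and 11 of 22 called is near the 46.6% of the whole table. With library totals as size factors, 4 genes of this list were higher. Strong calls were the RAS gene NRAS (-0.78 ± 0.08 SE, DESeq2 q = 3.85e-22) and the kinase ARAF (-0.55, q = 3e-12). NRAS went from 2462 ± 415.2 to 1433 ± 264.9 normalized counts. MAPK3, which encodes an ERK kinase (-0.60, q = 2.45e-11), and the phosphatase gene PTPN11 (-0.43, q = 5.58e-07, groups overlapping) were lower too. FRS2, the docking protein of FGF receptors, had a log2 fold change of -0.26 (q = 0.0151) with overlapping groups, and that call was lost without the block (q = 0.247) and without replicate 2 (q = 0.138) or 3 (q = 0.0978). The adaptor gene SHC1 (0.40, q = 6.29e-08) and the exchange factor gene SOS2 (0.34, q = 7.5e-05) were higher, whereas GRB2 and PLCG1 stayed within 0.01 of 0.

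Most feedback inhibitors of FGF signalling rose. Of 11 genes, 8 were higher (72.7%, against 22.7% over all genes with a q) and 0 lower by DESeq2, with 1 lower at an unadjusted p under 0.05 and 0 lower by edgeR. The median log2 fold change was 0.88. DUSP6, the phosphatase that inactivates ERK in the cytoplasm, had 379, 686.7, 474.6 and 627.2 normalized counts in control and 2251, 2793, 2040 and 1877 in OGTi. Its lowest OGTi library stood far above its highest control library, and the log2 fold change was 2.07 ± 0.13 (SE; DESeq2 q = 2.37e-58). DUSP5, the nuclear ERK phosphatase, rose by 1.47 (q = 1.8e-35). SPRY4, a Sprouty inhibitor of RAS activation, rose from 775.8 ± 141.7 to 2000 ± 110.7 (1.38, q = 6.45e-34). SPRED3 (1.17, q = 1.26e-09) and SPRY2 (0.61, q = 9.73e-08) rose as well. The members not called were SPRY1 (0.78 ± 0.47, q = 0.167), SPRED1 (-0.24 ± 0.12, q = 0.0926) and SPRED2 (0.08 ± 0.11, q = 0.594), and without replicate 1 SPRED1 was called lower (-0.39, q = 0.00361).

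FGF and ERK response genes split. Of 10 genes, 7 were higher (70%, against 22.7% over all genes with a q), 2 were lower (20%, against 24.0%) and FOSL1 (0.08, DESeq2 q = 0.369) was not called, with a median log2 fold change of 0.72. ETV1, an ETS factor induced by FGF, had 51.6, 106.2, 94.2 and 143.5 normalized counts in control and 472.5, 435.9, 409.5 and 546.9 in OGTi, a log2 fold change of 2.29 ± 0.20 (SE; q = 8.11e-30). Its relative ETV5 rose from 1840 ± 526.9 to 4392 ± 193.4 (1.31, q = 2.26e-08), and the remaining member of that subfamily, ETV4, fell from 409.3 ± 78.8 to 275.7 ± 67.0 (-0.58, q = 0.00314). The ETV4 groups overlapped, 3 of 4 pairs were lower, and without replicate 4 its q was 0.0863. PHLDA1 (0.95, q = 1.28e-28) and IER2 (0.65, q = 5.36e-13) were the other strong rises. EGR1, an immediate early gene of the ERK pathway, went the other way, from 3088 ± 227.2 to 1528 ± 515.6 (-1.07 ± 0.23 SE, q = 1.07e-05), and FOS, another one, rose from 54.1 ± 13.98 to 112.8 ± 22.8 (1.07, q = 0.000668). CCND1, cyclin D1, was called higher (0.80, q = 0.0143), a call lost without replicate 2 (q = 0.0872) or 4 (q = 0.0503).

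**Figure D4:**
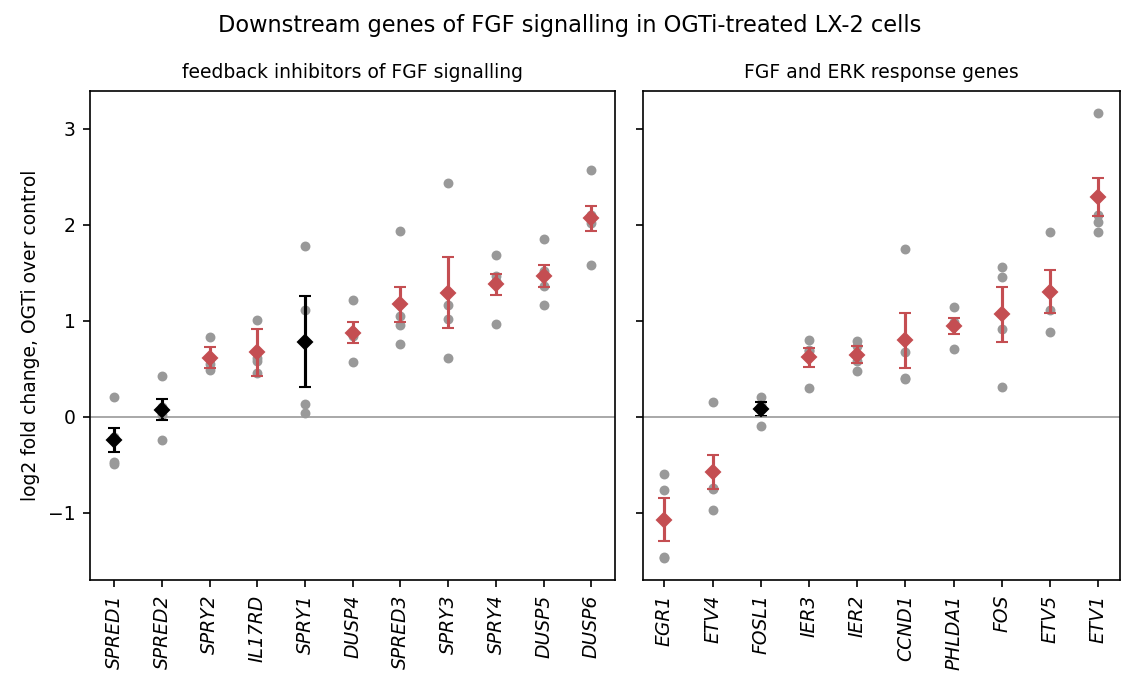
Log2 fold change of OGTi over control (vertical axis) of the 11 feedback inhibitors and the 10 response genes. Diamonds give the DESeq2 estimate with its standard error, red where called in either direction and black where not, and grey points give the 4 replicate pairs. DUSP6 (2.07) and ETV1 (2.29) are the highest, and EGR1 (-1.07), ETV4 (-0.58) and SPRED1 (-0.24) lie below 0.

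ATF4 is a stress-induced transcription factor of which FGF21 is a known target, and since FGF21 itself was not analysed here, only the pathway can be given. Of 10 ATF4 pathway genes, 6 were higher (against 22.7% of all genes with a q) and 0 lower by DESeq2. At an unadjusted p under 0.05, 8 were higher and 0 lower, and edgeR called 10 higher with the block, 7 higher without it and 0 lower in either case. The median log2 fold change was 0.86. ATF4 rose from 6828 ± 402.3 to 11358 ± 1829 normalized counts (0.72 ± 0.08 SE, DESeq2 q = 2.1e-16), ASNS, asparagine synthetase, rose by 1.03 (q = 1.87e-20) and SESN2, a stress-induced sestrin, rose by 1.01 (q = 1.65e-20). DDIT3, which encodes CHOP, also rose (1.33, q = 1.55e-06), and TRIB3 did not pass the test (0.40 ± 0.29, q = 0.273).

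**Figure D5:**
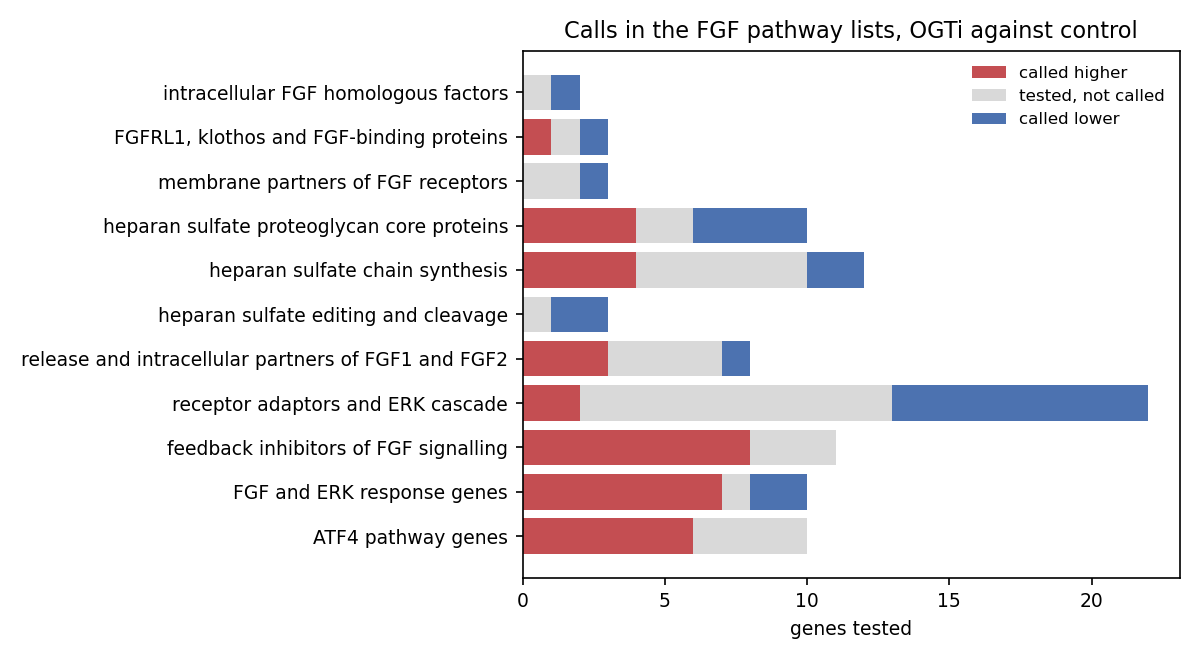
Number of genes with a q (horizontal axis) called higher (red), called lower (blue) or not called (grey) in the 11 lists with at least 2 such genes. Calls are mainly higher among the feedback inhibitors (8 of 11) and the response genes (7 of 10) and mainly lower in the adaptor and ERK cascade list (9 of 22).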

How the data were processed

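Per the labels, LX-2 RNA was enriched with oligo(dT) and sequenced from strand-specific DNBSEQ libraries. The authors aligned reads to hg38 (GRCh38) with Bowtie2 2.3.5.1 and counted them with RSEM 1.3.1, so that the deposited values are expected counts per gene, in which a read with several alignments is shared between genes; strand was used. A deposited comparison table made with DESeq2 1.36.0 (log2 fold changes, errors, Wald statistics and p-values) was not used.

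Expected counts were rounded. The 14895 genes with a total of at least 10 entered the DESeq2 1.42.0 Wald test (R 4.3.3), unshrunken, with median-of-ratios size factors, independent filtering and replicate number as a block, after the study's methods, which pair treated and control samples of a replicate. Across 10994 genes, deviations from the group means of same-numbered libraries correlated at 0.372, 0.391, 0.165 and 0.327, although control replicate 3 was closer to OGTi replicate 4 (0.343). Same-group libraries differed by 8.66 to 36.2 times sampling noise (chi-square per degree of freedom). P-values measure the spread between these cultures of 1 line. Normalized counts are given as mean ± SD over 4 libraries. The floor was 3 counts in a library, which covers counting error only. Alternatives were edgeR 4.0.16 quasi-likelihood, other scalings and filters, no block and leaving out each pair.

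Named genes were the FGF genes, the 3 called genes of largest absolute Wald statistic per list, all measured genes of lists with 6 or fewer, NUDT6, copies of FGF7 (not analysed here) and the 3 genes most correlated with the most abundant ligand and receptor; some genes that the rule names are not reported here. The FGF genes and all lists were chosen with earlier results of these data known. Gene positions and exon lengths came from GENCODE on GRCh38, and promoter sequences from RefSeq (GRCh38.p14).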

Additional observations from a re-analysis of the deposited data

Results flagged for a closer look

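In 139 groups of 4 libraries, 9 had a highest or lowest library whose distance to the nearest of the others took up nearly the whole range of the group (Dixon's criterion at 95%), while chance gives about 1 in 20, or 6.95. None of the 9 concerned an FGF ligand or receptor of the set. OGTi replicate 1 was low for CDH2 (2561 normalized counts, the others 4454 to 4648), high for SDC1 (7155, the others 5328 to 5568) and low for SULF2 (629.6, the others 1034 to 1107). Control replicate 1 was low for SULF2 (841.7, the others 1761 to 1815) and high for HPSE (372.1, the others 275.8 to 289.3). OGTi replicate 2 was low for SPRED2 (1211, the others 1510 to 1548) and for SPRY2 (803.6, the others 864.3 to 872.5). OGTi replicate 3 was high for NUDT6 (128.8, the others 90.4 to 93.2), and control replicate 3 alone held FLRT3 counts (11.5, the others 0).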

How the results depend on the processing

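Over 118 results and 1238 alternative values, 1191 kept their direction and call or, for counts of genes, stayed within 1.5 times and, for levels and shares, within 1 SD of the value reported. The FGF genes called ran from 4 to 5 and the ATF4 pathway genes called higher from 4 to 10. The causes of the other shifts were not tested. The calls of FGF1, FGF2, FGFR1 and FGFR3 held under each alternative run. By DESeq2 without the replicate block, which follows the pairing of the cultures, FGF5 stood at -0.63 and lost its call. In that fit 1 gene for heparan sulfate editing stayed called lower. By edgeR without the block FGF5 kept its call (q = 0.0327) and 2 heparan sulfate editing genes were lower. With single pairs left out, the log2 fold change ranged from -0.73 to -0.38 for FGF5, from -0.34 to 0.22 for FGF7, from -0.04 to 0.45 for FGF18 and from -0.039 to 0.18 for SPRED2, whose direction turned without replicate 1. In the same way, calls ranged from 0 to 1 for lower intracellular factors, from 0 to 0 for higher and from 0 to 1 for lower genes among FGFRL1, klothos and binding proteins, from 0 to 1 for lower feedback inhibitors, and from 1 to 2 for lower response genes. Scaling by library totals put the median log2 fold change of all genes at 0.095 in place of 0.005, with 61.2% of calls higher in place of 48.6%. It gave 4 higher adaptor and ERK cascade genes, while FRS2 lost its call (q = 0.156) and FOSL1 gained one (q = 0.031). By edgeR with the block, 10 ATF4 pathway genes were higher. Calls over the whole table ran from 5127 without replicate 2 to 7074 by edgeR with the block. With the longest transcript, control levels per kilobase were 1222 for FGFR1, 0.213 for FGFR2 and 30.0 for FGFR4. Without length correction the control and OGTi shares were 97.0% and 97.3% for FGFR1, 1.76% and 1.96% for FGFR3, and 1.20% and 0.745% for FGFR4. Depth limited FGF7, FGF18 and FGFR2, whose counts were too low to show moderate changes.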
